A study of Mus musculus with 12 samples.

Results

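The unfolded protein and amino acid stress response was examined in mouse liver through 10 genes, Hspa5, Herpud1, Dnajb9, Xbp1, Atf4, Ddit3, Trib3, Atf3, Chac1 and Asns. They were taken by gene symbol from a table of 21705 genes, and all 10 had a row. Female C57BL/6J mice, 10 to 12 weeks old, had been injected by the tail vein either with saline (n = 6) or with LNA29 (n = 6), a mixture of locked nucleic acid inhibitors of miR-29a and miR-29b/c given at 20 mg/kg each. A locked nucleic acid is a modified oligonucleotide that binds a microRNA and blocks it, and miR-29 is a microRNA family that represses collagen and other extracellular matrix genes. All mice of both groups were fasted overnight and their livers were collected on day 7 after dosing. The inhibitors were given systemically, no oligonucleotide of unrelated sequence was given to these 12 mice, and whole liver was sequenced. Fewer cells of a type and less RNA per cell can therefore not be told apart in any value given here.

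Secreting cells such as hepatocytes fold their export proteins in the endoplasmic reticulum (ER). When unfolded proteins build up there, the sensors IRE1, PERK and ATF6 start a program in which IRE1 splices Xbp1 mRNA, ATF6 is cut to an active transcription factor and PERK phosphorylates eIF2α, which slows translation while favouring that of Atf4. Lack of amino acids reaches the same eIF2α step through the kinase GCN2, and ATF4 then drives genes of amino acid synthesis, transport and tRNA charging as well as Ddit3, the gene of CHOP. Spliced and unspliced Xbp1, phosphorylated eIF2α and ATF4 protein are not seen in reads summed per gene.

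The promoters of these genes hold short elements through which the response is known to act, and the windows below are shown because they carry the letters of such an element. All 10 genes were matched to a RefSeq promoter window of 300 bases (250 before and 50 after the start site, build GRCm38.p6), and both strands were searched. The ER stress response element, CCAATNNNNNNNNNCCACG, is a known site for ATF6 and XBP1 together with NF-Y. It was found in 39 of 32851 windows (0.119%), and Hspa5 was the member among them. The related ERSE-II, ATTGG and CCACG separated by any 1 base, was found in 12 windows (0.0365%), with Herpud1 as the member. The C/EBP-ATF response element, TGATGNAA, which ATF4 binds with a C/EBP partner, was found in 1304 windows (3.97%), among them those of 5 members, Herpud1, Atf3, Chac1, Asns and Trib3. In Trib3 the letters lay at positions 15 to 22 after the start site. The element TGACGTGG, preferred by XBP1 and ATF6, was in 222 windows (0.676%) and the cyclic AMP element TGACGTCA in 588 (1.79%), and neither was in a window of a member. The windows below have 60 bases each and run 5′ to 3′ on the strand of the gene, with the element in capitals on whichever strand it lies.
Hspa5, chr2:34772005-34772064, + strand, ER stress response element: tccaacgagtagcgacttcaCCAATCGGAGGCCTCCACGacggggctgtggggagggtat
Herpud1, chr8:94386353-94386412, + strand, ERSE-II: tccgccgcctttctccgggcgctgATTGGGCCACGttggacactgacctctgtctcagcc
Herpud1, chr8:94386291-94386350, + strand, C/EBP-ATF response element: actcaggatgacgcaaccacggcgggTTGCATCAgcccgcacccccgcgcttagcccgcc
Asns, chr6:7693210-7693269, - strand, C/EBP-ATF response element: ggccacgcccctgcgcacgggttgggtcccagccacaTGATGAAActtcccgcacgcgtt
Chac1, chr2:119351023-119351082, + strand, C/EBP-ATF response element: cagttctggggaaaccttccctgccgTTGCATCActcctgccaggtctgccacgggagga
Atf3, chr1:191183410-191183469, - strand, C/EBP-ATF response element: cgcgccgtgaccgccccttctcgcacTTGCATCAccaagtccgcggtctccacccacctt

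The microRNAs that the inhibitors bind are shown because they share 1 seed (bases 2 to 8, in capitals), through which a microRNA pairs with its targets.
mmu-miR-29a-3p: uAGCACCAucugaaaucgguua
mmu-miR-29b-3p: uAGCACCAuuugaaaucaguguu
mmu-miR-29c-3p: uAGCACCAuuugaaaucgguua
The letters that pair with this seed, TGGTGCT, occur in the longest annotated 3′ UTR of 2930 of 20415 genes (14.4%, GENCODE M21 on GRCm38). Trib3 was the single member of 10 with a match, at base 305 of a 3′ UTR of 785 bases, here with the match in capitals.
Trib3 3′ UTR: gctgtcttctcTGGTGCTggttcatggga
A match of this length is a description of the sequence and not a measured site.

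The deposited values are reads per gene scaled to an upper quartile of 1000 among the detected genes of each liver, and genes without reads are listed at 1. Reads on genes ranged from 8217218 to 19062438 in saline livers and from 7696073 to 15079238 in LNA29 livers. A single read was worth between 9.80 and 24.4, which is set by the upper quartile and not by total reads alone. It was worth 10 in saline replicate 49 with 8217218 reads and 10.1 in saline replicate 51 with 17522193. Fold changes below are LNA29 minus saline on the log2(value + 1) scale from limma, with a standard error (SE) and a 95% interval, over 12486 genes with a mean value of at least 10. All 10 members passed that filter. Of the 12486 genes 20 had an adjusted p under 0.05 (0.160%), 988 had an unadjusted p under 0.05 (7.91%), and 1061 had a two-sided exact permutation p under 0.05 (8.50%). All 6 livers of 1 group lay above those of the other group in 123 genes (0.985%). Saline replicate 49 stood apart from the rest. Its summed value of 6 hepatocyte markers was 33130070, beside 76072594 to 111923930 in the other saline livers and 80304304 to 95493662 in LNA29 livers. These sums are of scaled values and so also depend on the worth of a read. As a share of reads on genes, albumin made up 35.7% there, beside 43.6% to 46.9% in the other livers. This library also held the highest saline value in 30.9% of the tested genes. Deviations from the gene mean also rose with transcript length there, with a Spearman's rho of 0.47, beside -0.282 to 0.262 in the other livers. The cause of these differences was not tested. Values without replicate 49 are given below for the members and list medians whose sign or size it changed most. The targets used as a read-out of the inhibitor were the collagens Col1a1 and Col3a1. Col3a1 rose from 222.1 ± 57.6 to 650.1 ± 252.5 (SD, n = 6 each), with all 6 LNA29 livers above the highest saline liver (log2 fold change 1.48, limma adjusted p = 0.0438), although in 10 of the 12 fits without 1 liver its adjusted p lay between 0.0532 and 0.128. Col1a1 was at 227.6 ± 80.4 and 391.8 ± 199.2 (0.70, limma adjusted p = 0.688).

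None of the 10 stress response genes passed the limma test after adjustment, and in none were the groups separated. The highest point estimates were those of Herpud1, Hspa5 and Atf4, with log2 fold changes of 0.37, 0.36 and 0.36, and Trib3 had -0.47. Atf4 was the single member with an unadjusted limma p (0.0498) and an exact permutation p (0.0411) under 0.05, a share of 1 in 10 beside the 7.91% and 8.50% of all tested genes. Its limma adjusted p was 0.631. Over the 10 members 7 fold changes were positive and 3 negative, with a median of 0.13, while the median of all 12486 genes was -0.093 with 4815 positive and 7671 negative. Without Atf3 and Asns, which had almost no reads and were 2 of the 3 negative members, the median of the other 8 was 0.23. Of these 8, 7 were positive and 1 negative, but 4 and 4 with array weights. The median of the 10 was -0.016 when LNA29 replicate 52 was left out and -0.035 with array weights, and 3 of the positive members, Chac1, Xbp1 and Ddit3, had no stable sign.

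**Figure D1:**
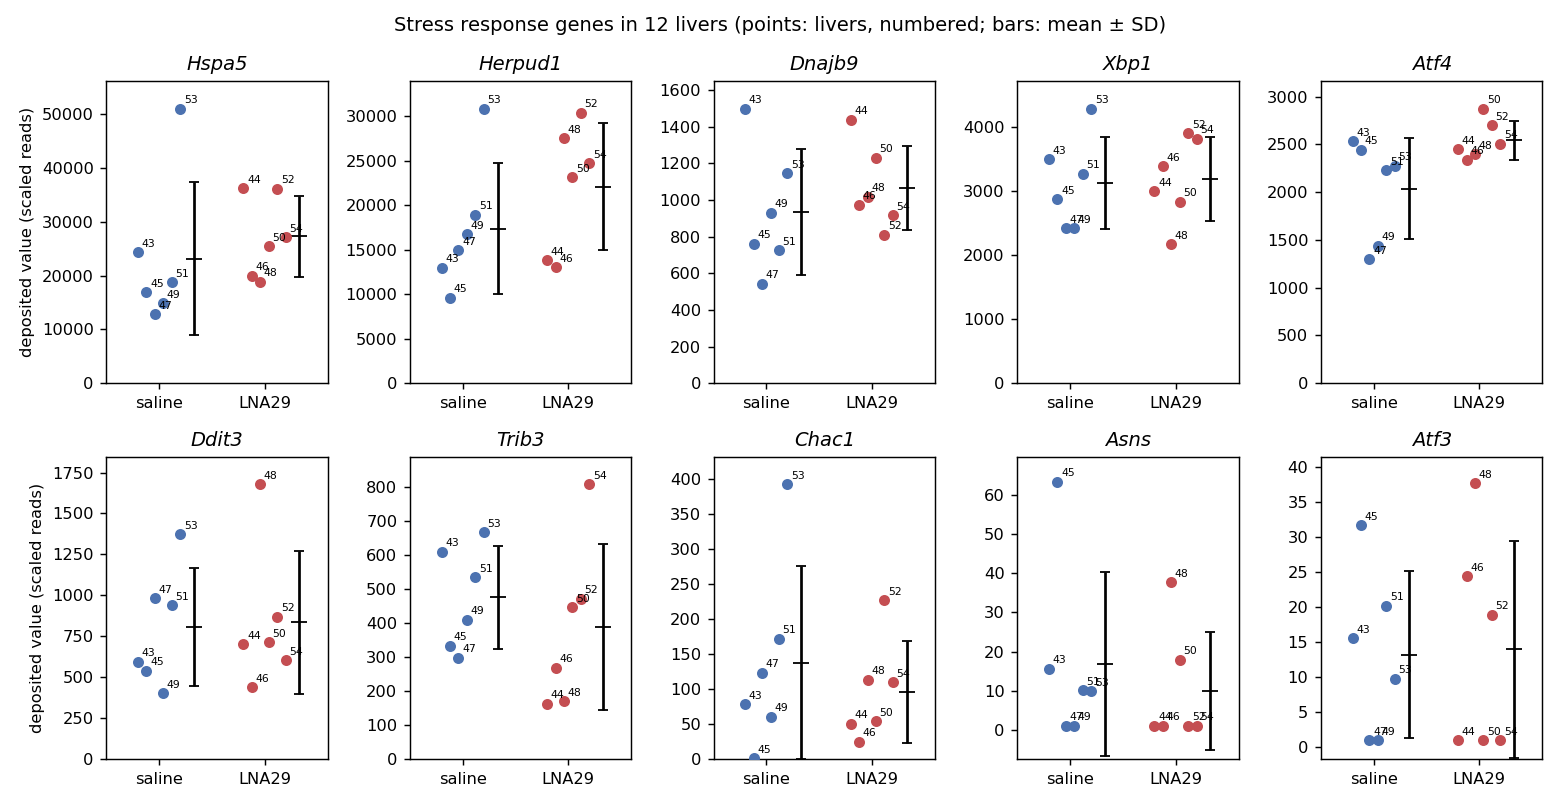
Deposited value (reads scaled to an upper quartile of 1000, linear axis) of each of 10 genes in 6 saline livers (blue) and 6 LNA29 livers (red), numbered by replicate, with the mean ± SD of each group in black. Hspa5 reached 51029 in saline replicate 53 and at most 24344 in the other saline livers, Atf4 was above the saline median in all 6 LNA29 livers, and Asns and Atf3 lay near the level of single reads.

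Among the chaperone and ER maintenance genes, Hspa5 encodes BiP, the major chaperone of the ER lumen and a standard read-out of ER stress. Its values were 24344, 16889, 12842, 14870, 18747 and 51029 in saline replicates 43, 45, 47, 49, 51 and 53, and 36200, 19976, 18830, 25446, 36113 and 27082 in LNA29 replicates 44, 46, 48, 50, 52 and 54. One saline liver, replicate 53, exceeded every other liver, and the remaining 5 lay between 12842 and 24344 while LNA29 livers lay between 18830 and 36200. All 6 LNA29 livers were above the saline median of 17818, and none was above the saline maximum. The group values were 23120 ± 14227 and 27275 ± 7560 (SD, n = 6 each), with a log2 fold change of 0.36 (SE 0.28, 95% interval -0.22 to 0.95, limma adjusted p = 0.808, exact permutation p = 0.297). Leaving out saline replicate 53 gave 0.62 (exact permutation p = 0.0281), with a limma adjusted p of 0.424, and leaving out saline replicate 47, the lowest liver, gave 0.23 (exact permutation p = 0.517). Without saline replicate 49 the log2 fold change was 0.27 (exact permutation p = 0.465).

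Herpud1 encodes an ER membrane protein of the degradation machinery for misfolded proteins. It was measured at 12969, 9587, 14947, 16720, 18919 and 30863 in the saline livers in the same order and at 13838, 13024, 27509, 23125, 30377 and 24726 in the LNA29 livers. LNA29 replicates 48, 50, 52 and 54 exceeded all saline livers but replicate 53, and LNA29 replicates 44 and 46 lay among the lower saline livers. The group values were 17334 ± 7358 and 22100 ± 7160 (SD, n = 6 each), with a log2 fold change of 0.37 (SE 0.26, 95% interval -0.18 to 0.93, limma adjusted p = 0.793, exact permutation p = 0.247). Without saline replicate 53 the difference was 0.56 (exact permutation p = 0.0758), and without saline replicate 45, the lowest liver, it was 0.22 (exact permutation p = 0.463).

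Dnajb9 encodes ERdj4, a J-domain partner of BiP that is induced through XBP1. Saline livers had 1500, 761.9, 543.9, 930, 727.3 and 1147, and LNA29 livers had 1438, 975.6, 1019, 1232, 811.3 and 917.8. The ranges overlapped, with the highest liver, saline replicate 43, and the lowest, saline replicate 47, both in the saline group. The log2 fold change was 0.24 (SE 0.22, 95% interval -0.23 to 0.71, limma adjusted p = 0.865), between 935 ± 343.6 and 1066 ± 229.3 (SD, n = 6 each), and it ranged from 0.10 without saline replicate 47 to 0.39 without saline replicate 43.

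Of the transcription factors that relay the signal, Xbp1 was the least different between the groups. Its saline values were 3500, 2873, 2421, 2420, 3273 and 4294, and its LNA29 values were 3000, 3390, 2170, 2839, 3906 and 3822. With 3130 ± 719.1 and 3188 ± 656 (SD, n = 6 each) the log2 fold change was 0.029 (SE 0.18, 95% interval -0.34 to 0.40, limma adjusted p = 0.982), and its sign changed in 4 of the 12 fits without 1 liver, among them the fit without saline replicate 49 (-0.039). The interval covers changes of this total mRNA in either direction, and the share that is spliced was not measured.

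Atf4, the transcription factor at which both arms meet, had 2531, 2444, 1298, 1440, 2232 and 2275 in saline livers and 2450, 2341, 2396, 2875, 2698 and 2507 in LNA29 livers. The LNA29 livers were tightly grouped (2545 ± 203.2), whereas the saline livers (2037 ± 530.5) fell into 4 that overlapped the LNA29 range or lay just under it and 2, replicates 47 and 49, that were far lower. All 6 LNA29 livers were above the saline median and 2 were above the saline maximum. The log2 fold change was 0.36 (SE 0.17, 95% interval 0.00031 to 0.73), with the p-values given above. It was 0.24 when saline replicate 47 was left out (exact permutation p = 0.0628) and 0.27 when saline replicate 49, the library that stood apart, was left out (exact permutation p = 0.0584). The exact permutation p also rose above 0.05 when each of the 6 LNA29 livers was left out in turn, with values from 0.0671 to 0.136.

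**Figure D2:**
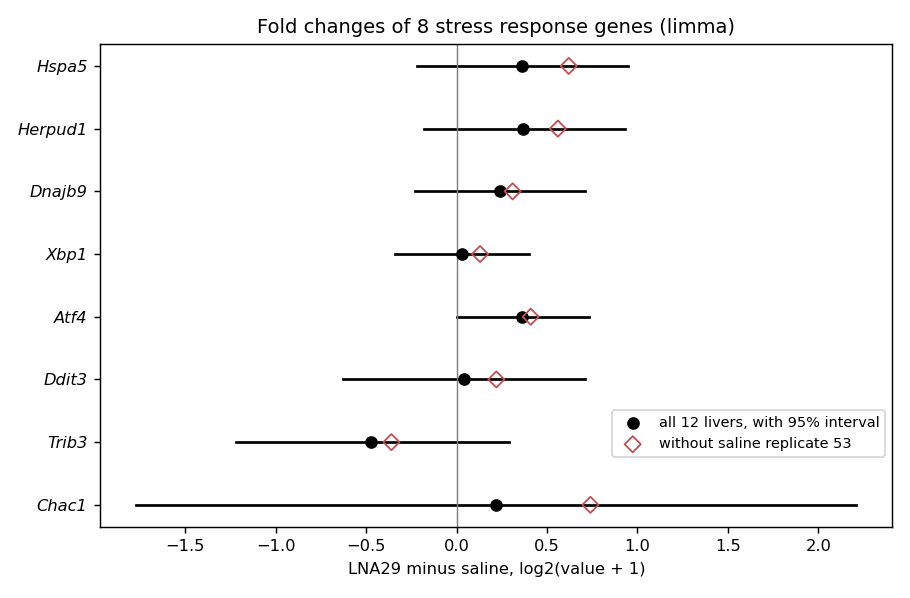
Log2 fold change (LNA29 minus saline, log2(value + 1)) of 8 genes from limma with all 12 livers, as black points with 95% intervals, and without saline replicate 53, as open diamonds. The interval of Atf4 starts at 0.00031 and the other 7 include 0, and without that liver Hspa5 moved from 0.36 to 0.62 and Herpud1 from 0.37 to 0.56.

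The downstream regulators and effectors showed no common direction. Ddit3, the gene of the pro-apoptotic factor CHOP, had 593.8, 539.7, 982.5, 400, 939.4 and 1373 in saline livers and 700, 439, 1679, 714.3, 867.9 and 602.7 in LNA29 livers. A single liver in each group, saline replicate 53 and LNA29 replicate 48, was well above the rest, and the other livers of the groups covered similar ranges. The log2 fold change was 0.041 (SE 0.32, 95% interval -0.63 to 0.71, limma adjusted p = 0.987), and -0.14 without saline replicate 49.

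Trib3 encodes a pseudokinase that ATF4 and CHOP induce and that restrains both. Its values were 609.4, 333.3, 298.2, 410, 535.4 and 666.7 in saline livers and 162.5, 268.3, 169.8, 446.4, 471.7 and 808.2 in LNA29 livers. LNA29 replicates 44, 46 and 48 were below the lowest saline liver, and LNA29 replicate 54, with 59 reads, was above the highest. The group values were 475.5 ± 151 and 387.8 ± 244.9 (SD, n = 6 each), with a log2 fold change of -0.47 (SE 0.36, 95% interval -1.22 to 0.29, limma adjusted p = 0.809, exact permutation p = 0.288). It was -0.26 without LNA29 replicate 44, -0.73 without LNA29 replicate 54, -0.22 with DESeq2 and -0.23 with edgeR. Trib3 is the member with the miR-29 seed match shown above.

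Chac1 encodes an enzyme that degrades glutathione and is a target of ATF4. Reads were few, from 0 to 40 in saline livers and from 1 to 12 in LNA29 livers, and 75 and 34 in sum. The saline values were 78.1, 1, 122.8, 60, 171.7 and 392.2, where 1 stands for no read, and the LNA29 values were 50, 24.4, 113.2, 53.6, 226.4 and 109.6. The log2 fold change was 0.22 (SE 0.94, 95% interval -1.77 to 2.21), while the ratio of the group means was 0.699. No direction can be given for this gene. Without saline replicate 45, the liver with no read, the log2 fold change was -0.79, without LNA29 replicate 52 it was -0.093, and with a pseudocount of 10 in place of 1 it was -0.088.

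Asns, asparagine synthetase, and Atf3, a stress-induced transcription factor, were hardly detected. Asns had 1, 4, 0, 0, 1 and 1 reads in saline livers and 0, 0, 2, 1, 0 and 0 in LNA29 livers, and Atf3 had 1, 2, 0, 0, 2 and 1 reads and 0, 1, 2, 0, 1 and 0 reads. At most 3 reads in a library was taken as the floor, which is a value of 29.4 to 73.2, depending on the library. Saline replicate 45, with 4 reads of Asns, was the single liver above it. No fold change is given for either gene, and a difference between the groups was not detectable at this depth.

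The members varied between livers of the same group. Saline replicate 53, the most deeply sequenced library with 19062438 reads, held the highest saline value in 6 of the 8 members with reads (Hspa5, Herpud1, Xbp1, Ddit3, Trib3 and Chac1) and was above the saline mean in all 8. The median deviation of these 8 genes from their group mean on the log2 scale was 0.72 there, against -0.47 to 0.26 in the other saline livers and -0.35 to 0.39 in the LNA29 livers. Over all tested genes replicate 53 was the highest saline liver in 13.8%. It was also highest in 15 of 22 other ER chaperones and folding enzymes (21 above the saline mean, median deviation 0.58). The same held for 9 of 20 genes of ER-associated degradation and 9 of 25 of ER translocation and glycosylation. In the other lists it was highest in 2 of 15 sensors and regulators, none of 9 amino acid transporters and 1 of 5 amino acid synthesis genes. Of 12 tRNA synthetases 3 were highest there and 10 above the saline mean, and of 16 stress effectors 4 were highest. In LNA29 replicate 54, 8 of the 22 ER chaperones were highest in their group and 19 above its mean (median deviation 0.31), where 19.4% of all tested genes were highest. In saline replicate 53, 6 markers of B cells and of plasma cells, the latter rich in ER, summed to 658.9, the highest of the 12 livers (193.5 to 432 in the other saline livers and 140.5 to 513.4 in LNA29 livers). Of these markers, Igj and Mzb1 had at most 1 read in any liver and Ms4a1 at most 2. The part of these cells in the result was not tested. Of 7 markers of exocrine pancreas, a tissue rich in ER, Cpa1, Pnlip, Ctrb1, Try4 and Amy2a5 had 0 reads in all 12 livers. The 7 summed to 279.5 in saline replicate 53 against 95 to 301.9 in the other saline livers and 117.5 to 382.4 in LNA29 livers. Its hepatocyte markers summed to 90749882, within the range of the other livers.

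**Figure D3:**
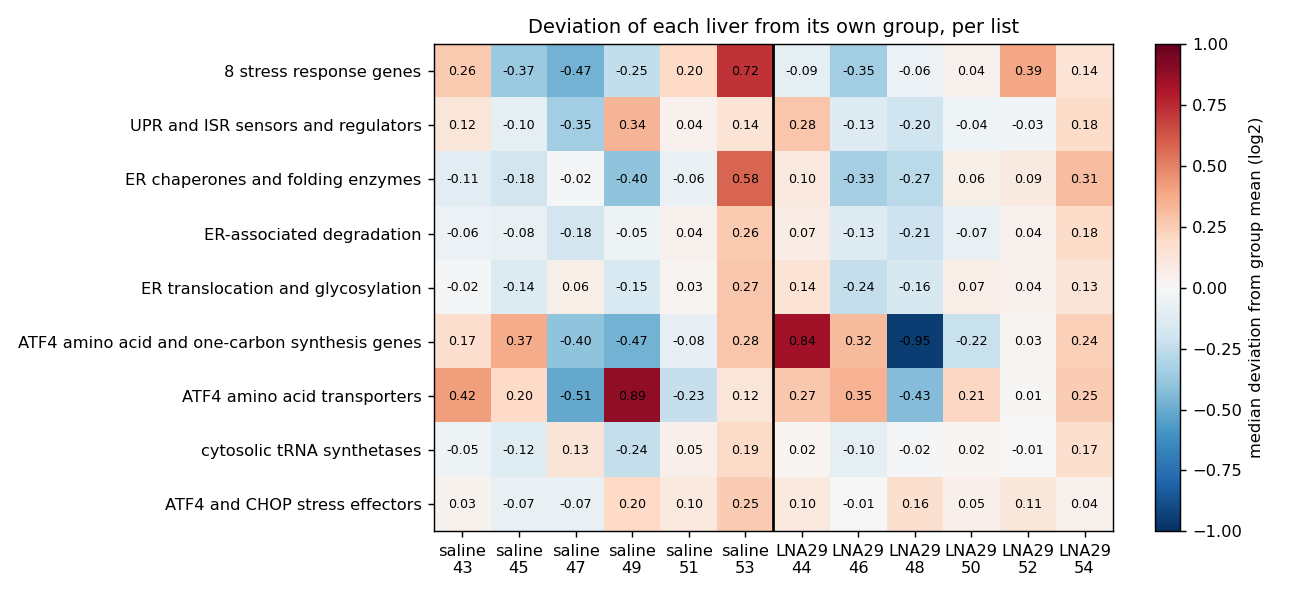
Median deviation from the mean of the own group (log2 scale, color and printed value) of the genes of 9 lists, in rows, in each of 12 livers, in columns, with saline livers left of the line. In saline replicate 53 the 8 stress response genes deviated by 0.72 and the ER chaperones by 0.58.

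Relations between members across the 12 livers were computed for 12 pairs of a regulator and a target or of co-regulated genes. The closest was that of Xbp1 and Hspa5, with Pearson's r = 0.75 (permutation p = 0.00562, Benjamini-Hochberg adjusted 0.0674) and Spearman's rho = 0.71 (permutation p = 0.0122, adjusted 0.146). Within the groups of 6, r was 0.94 in saline and 0.54 in LNA29 livers, and without saline replicate 53 and LNA29 replicate 48, the livers farthest from the median of Xbp1, it was 0.69 (permutation p = 0.0283). Hspa5 and Dnajb9 gave r = 0.57 (permutation p = 0.0505) and rho = 0.58 (permutation p = 0.0529), with 0.66 in saline and 0.14 in LNA29 livers. Hspa5 and Herpud1 gave r = 0.52 (permutation p = 0.0863) and rho = 0.46 (permutation p = 0.133), with 0.68 and 0.053, and without saline replicates 47 and 53 these 2 pairs had r = 0.41 and 0.34. No pair passed the adjustment over the 12, and over the 12 livers Atf4 gave r = 0.13 with Trib3, -0.10 with Chac1 and 0.084 with Ddit3. For Atf4 and Trib3, whose fold changes had opposite signs, r was 0.61 within saline and 0.52 within LNA29 livers.

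**Figure D4:**
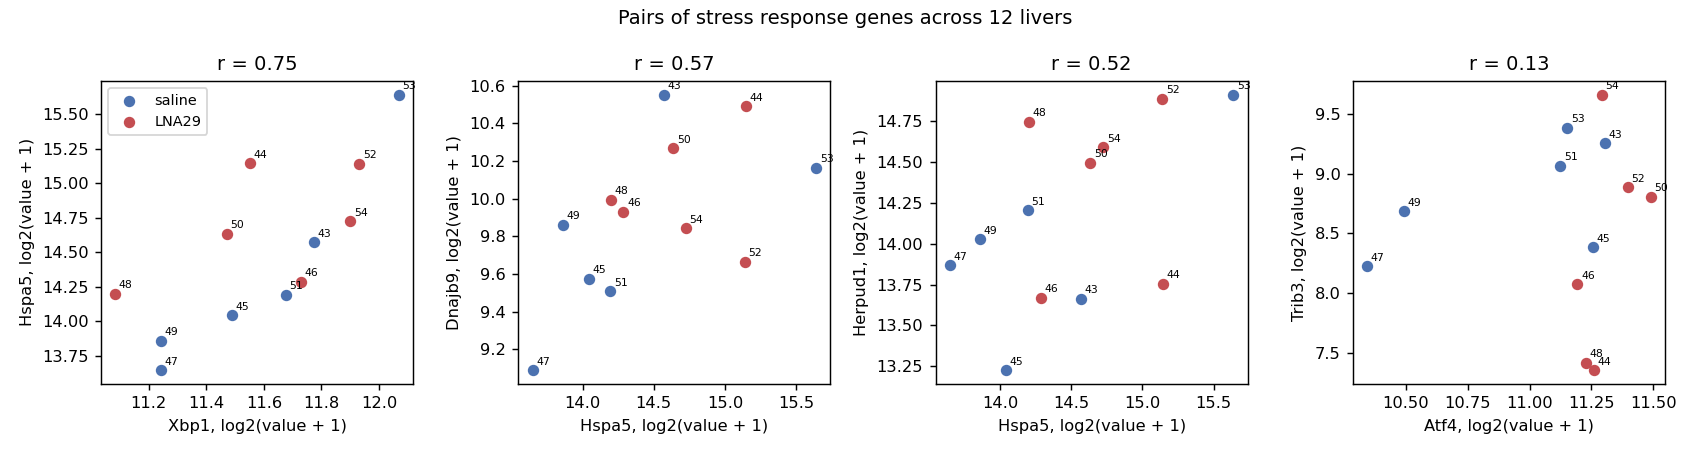
Values of 4 pairs of genes, log2(value + 1) on both axes, in 6 saline livers (blue) and 6 LNA29 livers (red), numbered by replicate, with Pearson's r over 12 livers above each panel. Xbp1 and Hspa5 had r = 0.75, with saline replicate 53 highest in both, and Atf4 and Trib3 had r = 0.13, with 0.61 within saline and 0.52 within LNA29 livers.

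The other genes of the response were taken from 8 lists of 130 genes, of which 124 were tested. None of the 124 passed the adjusted test, 54 had a positive and 70 a negative fold change, and 7 (3 positive, 4 negative) had an unadjusted limma p under 0.05, beside 7.91% of all tested genes. The median was -0.045.

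**Figure D5:**
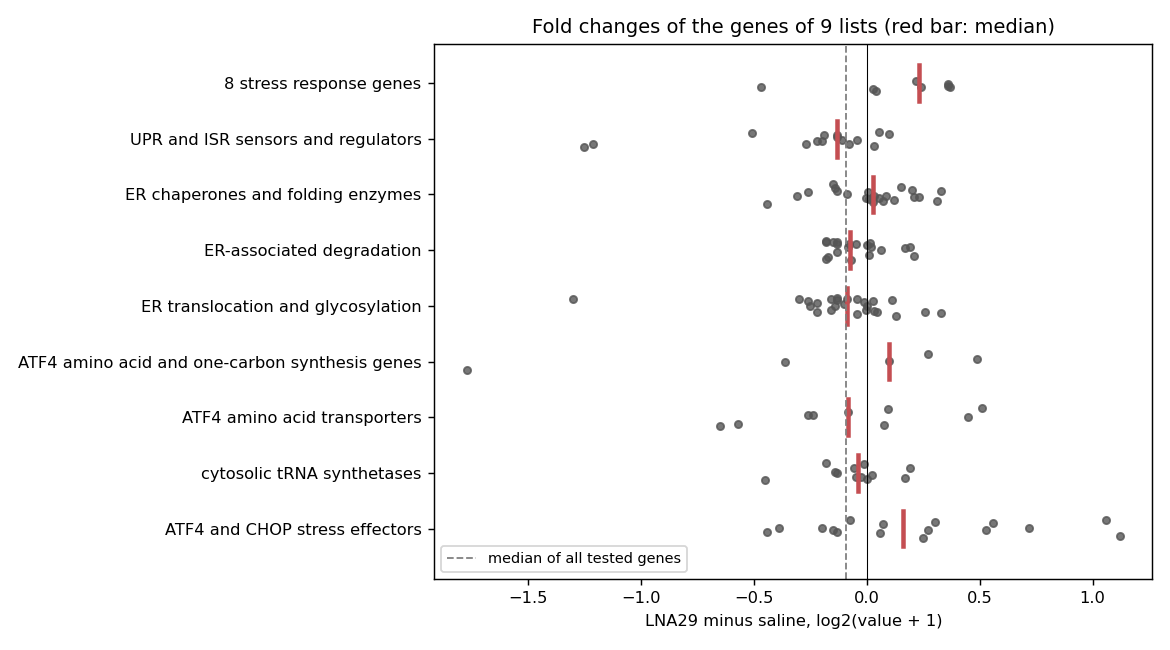
Log2 fold change (LNA29 minus saline, log2(value + 1)) of each tested gene of 9 lists, 1 grey point per gene with vertical jitter, the median of each list as a red bar and the median of all tested genes, -0.093, as a broken line. The 8 stress response genes with reads had a median of 0.23 (0.13 with Atf3 and Asns, which are not drawn, and -0.016 for these 10 without LNA29 replicate 52), and the medians of the other lists lay between -0.13 and 0.16. Asns had at most 4 reads a liver, as did Tnfrsf10b, which was kept among the stress effectors.

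The 15 sensors and regulators had 3 positive and 12 negative fold changes (median -0.13). Ern1, the gene of the sensor IRE1, had 279.5 ± 182.1 in saline and 125 ± 59.6 in LNA29 livers (SD, n = 6 each) from 1 to 60 reads a liver, with a log2 fold change of -1.21 (limma adjusted p = 0.542, -0.74 without LNA29 replicate 48), and 4 LNA29 livers were below the lowest saline liver. Of the 4 eIF2α kinases, Eif2ak1, the heme-regulated kinase, Eif2ak2, the kinase activated by double-stranded RNA, and Eif2ak4, the amino acid sensor GCN2, had -0.27, -0.51 and -1.25 (limma adjusted p = 0.672, 0.734 and 0.773). The value of Eif2ak4 rested on at most 21 reads a liver and was -0.45 without LNA29 replicate 50, -0.56 with DESeq2 and -0.57 with edgeR. The remaining kinase Eif2ak3, the gene of PERK, outside the naming rule, was at -0.078 (limma adjusted p = 0.979). The highest saline value of Ern1, Eif2ak2 and Eif2ak4 was in replicate 49.

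The 22 ER chaperones and folding enzymes had 14 positive and 8 negative fold changes with a median of 0.029. The largest in size was negative: P4hb, a protein disulfide isomerase, was at 49426 ± 4353 in saline and 36965 ± 7057 in LNA29 livers (log2 fold change -0.44, limma adjusted p = 0.413, exact permutation p = 0.00649), and no LNA29 liver was above the saline median. Txndc5, another disulfide isomerase, was at -0.26. In the other direction, Hsp90b1, the ER form of HSP90, had 27881 ± 8904 and 33850 ± 5708 (0.31), and Manf, a secreted ER stress protein, had 4008 ± 2372 and 4600 ± 1267 (0.33), both with the highest saline value in replicate 53 as in Hspa5. Without that liver they were at 0.46 and 0.58 and the median of the list was 0.16, and without saline replicate 49 they were at 0.24 and 0.15 and the median was -0.033.

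The 20 genes of ER-associated degradation had 8 positive and 12 negative fold changes, all between -0.18 and 0.21, with a median of -0.075. Ufd1l, a cofactor of the p97 extraction ATPase, was at 0.21 (0.12 without saline replicate 49), Os9, a lectin that recognizes misfolded glycoproteins, at -0.18, Faf2 at -0.18 and the ubiquitin-conjugating enzyme Ube2g2 at 0.19. Among 25 genes of ER translocation and glycosylation 8 were positive and 17 negative (median -0.086). Ssr2 and Ssr1, subunits of the same translocon-associated complex, were at 0.33 and -0.26 (exact permutation p = 0.026 and 0.0152, limma adjusted p = 0.597 and 0.672). The oligosaccharyltransferase subunit Rpn2 was at -0.22, and Sec61g, a subunit of the translocation channel, at -1.30 from at most 7 reads a liver (-0.60 without LNA29 replicate 50).

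The amino acid arm was only partly measurable. Of 10 genes of amino acid and one-carbon synthesis, Phgdh, Psat1, Mthfd2, Aldh1l2 and Pycr1 had at most 2 reads in any liver and were under the filter. Of the 5 tested, 3 were positive and 2 negative, with a median of 0.10 that was -0.058 without saline replicate 49. Shmt2, the mitochondrial serine hydroxymethyltransferase, was at 6769 ± 827.9 in saline and 5249 ± 341.9 in LNA29 livers, 4 of which were below the lowest saline liver (log2 fold change -0.36, limma adjusted p = 0.372, exact permutation p = 0.00649). Cth, which makes cysteine from cystathionine, was at 0.49 (0.31 without LNA29 replicate 44), the aspartate aminotransferase Got1 at 0.27 (0.10 without LNA29 replicate 44) and Aldh18a1, a proline synthesis enzyme with 0 reads in at least 1 LNA29 liver and 36 in another, at -1.77 (95% interval -4.32 to 0.77). The 9 amino acid transporters had 4 positive and 5 negative fold changes, and their median of -0.084 was 0.19 without saline replicate 49 and 0.15 with array weights. They included Slc3a2, the heavy chain shared by several transporters, at -0.26, its partner Slc7a5 at 0.51, the glutamine transporter Slc1a5 at -0.65 and the glycine transporter Slc6a9 at -0.24. Slc7a5 had at most 17 reads a liver and ranged from 0.26 to 0.83 without 1 liver (limma adjusted p = 0.868). Slc1a5 had at most 10 reads a liver (limma adjusted p = 0.773). It ranged from -0.85 to -0.39 without 1 liver and was at -0.34 with DESeq2 and edgeR. Of 12 cytosolic tRNA synthetases 4 were positive and 8 negative (median -0.037), but 8 and 4 with DESeq2 (median 0.036). Aars, for alanine, had 6766 ± 1429 and 4936 ± 872.1 with 5 LNA29 livers below the lowest saline liver (-0.45, limma adjusted p = 0.417, exact permutation p = 0.0173), while Tars, for threonine, was at 0.19, Gars, for glycine, at 0.17 and Nars, for asparagine, at -0.18.

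The stress effectors downstream of ATF4 and CHOP had a median of 0.16, with 10 positive and 6 negative of 16 tested, and Stc2, with at most 1 read, was not tested. The hormones Fgf21 and Gdf15, which the liver releases under stress, had the smallest unadjusted p of this list. Fgf21 was at 264.8 ± 110.3 in saline and 588 ± 391.5 in LNA29 livers, with all 6 above the saline median and 3 above the saline maximum (1.06, SE 0.38, limma adjusted p = 0.432, exact permutation p = 0.039). Gdf15 was at 119.3 ± 47.1 and 302.2 ± 242.3, with 4 LNA29 livers above the saline maximum (1.12, SE 0.49, limma adjusted p = 0.574, exact permutation p = 0.0801). Both hormones were highest in LNA29 replicate 48, and reads were few, at most 70 a liver for Fgf21 and 38 for Gdf15. Without that liver Fgf21 was at 0.78 and Gdf15 at 0.80. With array weights they were at 0.84 and 0.70, and with DESeq2 at 1.24 and 1.42. Ddit4, an inhibitor of mTORC1, was at 0.72 (limma adjusted p = 0.753, 0.46 without LNA29 replicate 46), and Cebpg, a partner of ATF4 on DNA, was at 757.5 ± 159.1 and 902 ± 48.6 (0.27, limma adjusted p = 0.729, exact permutation p = 0.039). None of these passed the adjusted test. No tested marker gene of the 10 cell type lists passed it either, beside 0.160% of all tested genes, and markers under the filter were not tested. The 7 endothelial markers had 1 positive and 6 negative fold changes (median -0.26), and the 6 bile duct markers had 4 and 2 (median 0.17). Endothelial markers summed to 6095 to 6540 in saline and 5001 to 6247 in LNA29 livers. A part of cell content in these results was not tested.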

How the data were processed

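Messenger RNA of 6 saline and 6 LNA29 livers was sequenced as single reads from polyadenylated libraries. Mapping by the authors was done in MapSplice2 and estimation of gene reads in RSEM (build mm9 per the submitters' processing notes, versions not given in the sources used here), and 1 signal value per gene and liver was deposited, which is the read estimate scaled by 1000 over the upper quartile of detected genes. In saline replicate 49 that quartile came to 998.3. The deposited group means, fold change and p-value were not used, nor were 3 unnamed columns of values. Per liver, 92.2% to 93.9% of values divided by the worth of 1 read gave a whole number (tolerance 0.02), so reads were recovered and rounded for count tests as alternatives.

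The 10 genes, the lists and the tests were chosen with earlier results of these data known. Every gene of the 10 is named with all values, and from each other list any gene with an adjusted p under 0.05 and otherwise the 4 with the smallest unadjusted p. Of the listed genes 3 were matched by Entrez identifier, and 2 markers of red cells had no row. Genes with an average value of 10 or more were fitted on the log2(value + 1) scale in limma 3.58.1 with its trend option (under R 4.3.3), and p-values were adjusted after Benjamini and Hochberg and held to 0.05, beside a two-sided exact permutation test over 924 divisions of the livers for single genes. Correlations were permuted 100000 times. Alternatives were count tests of recovered reads in DESeq2 1.42.0 and edgeR 4.0.16, other pseudocounts, filters, scalings and weights, and leaving out each liver. The limma, edgeR and DESeq2 fits with default settings were also run on simulated reads. The other alternatives and the permutation test were not. Each library is labelled as a separate sample, and p-values measure the spread between these samples. Single genes with few reads carry counting error on top of that spread. Tables were made in Python 3.11.15 (pandas 2.3.3, scipy 1.17.1, numpy 2.4.6).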

Additional observations from a re-analysis of the deposited data

Results flagged for a closer look

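In 84 groups of 6 livers, 9 held a value that lay far from the other 5 (the gap to its nearest neighbour over the range of the group, above Dixon's critical value). About 4.2 would be flagged if values were normally distributed. The gaps were taken on the linear scale of the deposited values, and all 9 flagged values were high. Genes of the other lists had been picked by their p in these data. No excess over chance can therefore be read from the 9. Saline replicate 53 held 3 of them: Hspa5 at 51029 (12842 to 24344 in the other saline livers), Hsp90b1 at 45665 (21269 to 26702) and Manf at 8451 (1860 to 4219). Saline replicate 49 held 3 more: Eif2ak2 at 290 (156.9 to 203.1), Eif2ak4 at 210 (35.1 to 93.8) and Cebpg at 1070 (650.8 to 765.6). In the LNA29 group, Ddit3 was at 1679 in replicate 48 (439 to 867.9 in the others), Txndc5 at 3000 in replicate 54 (1981 to 2268) and Aldh18a1 at 878 in replicate 46 (1 to 54.8, where 1 stands for no read).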

How the results depend on the processing

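None of the 10 genes and none of the 124 other listed genes was called by limma, edgeR or DESeq2 in any setting. Over all genes, 20 were called with the settings of the text, 72 with DESeq2, 58 with array weights, 124 with a transcript length trend covariate, 10 after a shift to a common median and 1 to 29 without 1 liver, while edgeR called 17. The number of members with an exact permutation p under 0.05 was 0 to 2 without 1 liver, and 2 without saline replicate 53. Among the 8 members with reads, the direction of 3 was not stable. Ddit3 was at -0.24 and Xbp1 at -0.013 with array weights, and leaving out 1 liver gave -0.19 to 0.22 for Ddit3 and -0.039 to 0.13 for Xbp1. Chac1 was at -0.45 with DESeq2, -0.52 with edgeR, -0.058 with array weights, -0.088 with a pseudocount of 10 and from -0.79 to 0.74 without 1 liver. Medians of lists without 1 liver ranged from -0.016 to 0.27 over the 10 members, from -0.033 to 0.16 for ER chaperones, from -0.10 to 0.29 for amino acid synthesis, from -0.22 to 0.19 for transporters and from 0.055 to 0.20 for stress effectors, so that neither the order of the list medians nor the sign of the first 4 was stable. For tRNA synthetases the median ranged from -0.091 to 0.0087 without 1 liver and was 0.036 with DESeq2, so its sign was not stable either. The median of all tested genes was -0.093, and -0.0079 with DESeq2. Col3a1 kept a fold change of 1.36 to 1.65 without 1 liver. Without the 2 livers farthest from the median, r changed sign for Atf4 with Asns (-0.04), Ddit3 (-0.23) and Atf3 (-0.44), for Ddit3 with Trib3 (0.051) and for Herpud1 with Dnajb9 (-0.20). The cause of these changes was not tested. No paired analysis was possible because the groups share no replicate number. Genes with at most 3 reads a liver, as Atf3 and Asns nearly everywhere, are limited by depth.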
